A study of Mus musculus with 12 samples.

Results

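The genes described here encode histones, the proteins around which DNA is wrapped in the nucleus. There are 10 of them among the 14909 gene rows of the count table, found by symbol. The 3 clustered genes, Hist1h1c, Hist1h2bc and Hist1h1e, belong to the Hist1 gene cluster on chromosome 13. The 7 replacement genes, H1f0, H2afz, H2afx, H2afy, H2afv, H3f3a and H3f3b, stand alone on other chromosomes or, for H2afy, far from the cluster on the same one. The set was proposed with the knockout against wild-type differences of these same libraries in view, so those differences are given as a description and support nothing.

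The libraries are RNA-seq of frontal cortex, each from 1 C57BL/6 mouse: 7 mice were wild-type (WT 1 to WT 7) and 5 carried a knockout of Upf3b (KO 1 to KO 4 and KO 6). Upf3b encodes a component of nonsense-mediated mRNA decay, the pathway that degrades transcripts with premature stop codons, and lies on the X chromosome. The labels name neither sex, age, breeding nor the type of Upf3b allele, and do not say how RNA was selected before sequencing. No treatment is named, and genotype is the only labelled difference between the groups.

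Core histones (H2A, H2B, H3 and H4) form the nucleosome, and linker histones of the H1 family bind the DNA between nucleosomes. Clustered histone genes are mostly transcribed when cells copy their DNA, and their typical mRNA carries no poly(A) tail and ends in a conserved stem-loop that the stem-loop binding protein SLBP recognises. Replacement histones are made throughout the cell cycle from polyadenylated mRNAs, often spliced, and supply chromatin in cells that no longer divide, such as neurons. Upf1, the helicase of nonsense-mediated decay, also takes part in degrading stem-loop histone mRNAs when DNA synthesis stops.

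The stem-loop is shown because it is the sequence feature that sets the 2 kinds of histone mRNA apart. The transcripts of the GENCODE annotation of mouse genome build GRCm38 (mm10) were searched on the transcript strand for a stem of 6 matching base pairs, which begins with GG and ends with T on its 5′ side, around a 4-base loop of the letters TNTN. It was found in 3 of the 10 genes, and in 28 of 14822 genes searched (0.189%). Capitals mark the stem and loop, with 5 flanking bases on either side, 5′ to 3′.
Hist1h1c: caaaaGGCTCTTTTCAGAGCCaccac
Hist1h1e: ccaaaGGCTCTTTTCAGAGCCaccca
H2afx: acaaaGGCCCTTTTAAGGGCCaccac
Hist1h1c and Hist1h1e share the same 16 bases of stem and loop, and H2afx has another stem. The annotated transcripts run on past the stem-loop, by 840 bases in Hist1h1c, 1153 in Hist1h1e and 822 in H2afx. The annotated transcript of Hist1h2bc has 2 exons, and these letters were not found in it. None of the other 6 replacement genes held the pattern. A match to these letters is a description and does not show that the site was used.

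Promoters are shown for the linker histones, the class with both clustered and replacement members in the set. RefSeq promoter windows on GRCm38.p6 matched 8 of the 10 genes, and the 130 bases before the RefSeq start are printed for 3 of them. For H1f0 that start lies upstream of the GENCODE start given with its values. Capitals mark the CCAAT box, the TATA box (searched as TATAAA and as its variant TATATA) and the H1 box known from H1 genes, searched by its letters AAACACA. All 3 were searched on both strands.
Hist1h1c, chr13:23738677-23738806, plus strand: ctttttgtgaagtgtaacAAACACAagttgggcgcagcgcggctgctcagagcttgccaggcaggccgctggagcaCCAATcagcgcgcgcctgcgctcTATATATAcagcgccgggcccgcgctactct
Hist1h1e, chr13:23622559-23622688, minus strand: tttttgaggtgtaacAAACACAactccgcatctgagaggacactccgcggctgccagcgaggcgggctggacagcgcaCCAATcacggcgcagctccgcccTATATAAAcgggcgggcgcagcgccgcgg
H1f0, chr15:79028082-79028211, plus strand: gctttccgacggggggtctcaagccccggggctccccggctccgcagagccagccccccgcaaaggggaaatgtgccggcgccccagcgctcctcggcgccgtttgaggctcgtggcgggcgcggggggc
Both clustered linker genes held all 3 motifs in the same order. H1f0 held none of them in its 300-base window. That window ended at chr15:79028261, before the GENCODE start at chr15:79028450, and the bases between were not searched. Over all 32851 promoter windows of 300 bases, 37.4% held CCAAT, 17.1% held a TATA box and 7.18% held the H1 box. The CCAAT box was also found in the windows of H2afz (3 copies), H2afv (4), H3f3b (4) and H3f3a (1), a TATA box in that of H3f3b and an H1 box in that of H3f3a.

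Levels are normalised read counts (CPM, counts scaled to the size of the library), scaled with edgeR's TMM factors. Total counts ran from 4684039 to 5425774 in the WT libraries and from 4990643 to 6617759 in the KO libraries, and the biological coefficient of variation was 8.11%. Upf3b itself fell from 38.3 ± 2.48 CPM (SD, n = 7) to 2.76 ± 0.877 (n = 5), 7.2% of the WT level, with no overlap between the groups (edgeR log2 fold change -3.78 ± 0.13, adjusted p = 7.21e-11). WT 6 and WT 7 were the closest libraries: a chi-square test over 14619 genes gave 1.02 per degree of freedom (p = 0.0175), against 1.24 to 7.05 in the other 20 WT pairs, and the gene that differed most, Ttr, had 9 and 56 counts. They were kept as 2 mice. Genes with few counts per exonic base tended towards higher values in KO and densely covered genes towards lower ones: the medians of 10 bins of genes ranged from 0.25 (sparsest) to -0.18 (densest) in log2 fold change. A second set of values, called density-corrected below, removes that trend for each library. Of 14274 genes tested with edgeR's quasi-likelihood test, 2183 were called higher and 2050 lower in KO at an adjusted p under 0.05, with a median log2 fold change of 0.0338. With library total as a covariate the calls were 84 and 11, 88.4% of them higher against 51.6%. The mice are separate animals per the labels, and p-values measure the spread between them.

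**Figure D1:**
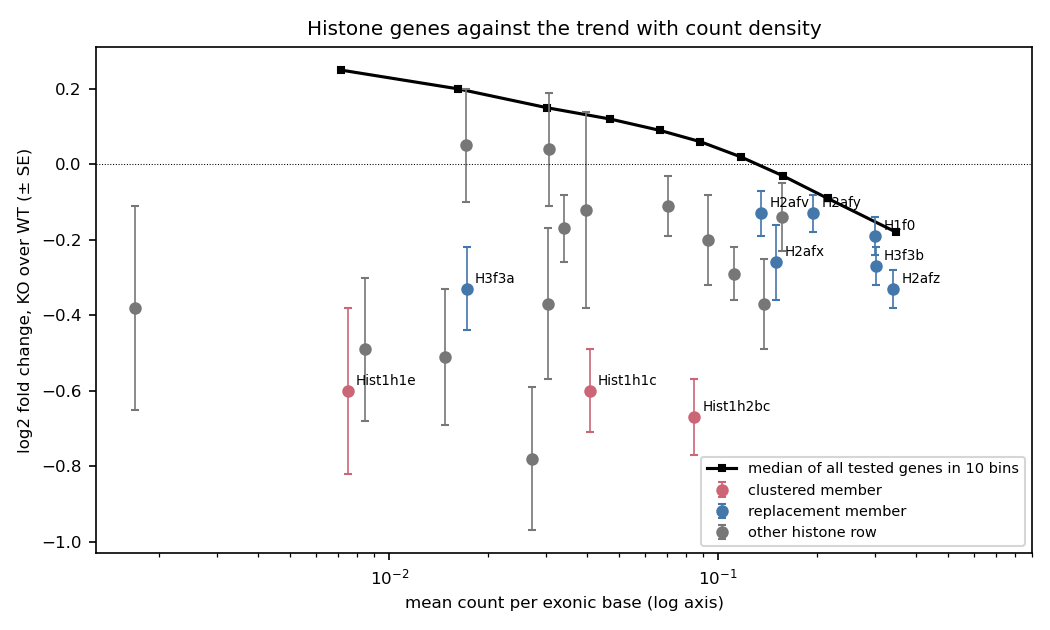
Median log2 fold change, KO over WT, of 10 bins of genes (vertical axis) against their count per exonic base (horizontal axis, log scale). The 10 histone genes, and the other tested histone rows of known exonic length, are drawn at their own values. The median of the bins runs from 0.25 to -0.18. All 10 histone genes of the set lie below the bins of like density, H1f0 only narrowly.

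All 10 histone genes had a lower mean level in the KO cortex than in the WT cortex. The 3 clustered genes stood at 66.1%, 63.2% and 66.1% of the WT mean and the 7 replacement genes between 79.3% and 91.5%. Of the 10 genes 7 were called lower and 0 higher, where 14.4% of all tested genes were called lower and 15.3% higher. Density-corrected, 6 were called lower and 0 higher, where 8.06% of all genes were lower and 8.52% higher. For 5 of the 10 every KO library lay below every WT library, which held for 4.8% of all tested genes. At an unadjusted p under 0.05, 9 were lower and 0 higher, against 19.2% and 22.2% of all genes. DESeq2 called 7 lower and 0 higher (15.3% and 11.9% of all genes), and limma-voom 8 and 0 (14.8% and 16% of all genes). In whole tissue, fewer cells of a type and less RNA per cell cannot be told apart.

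**Figure D2:**
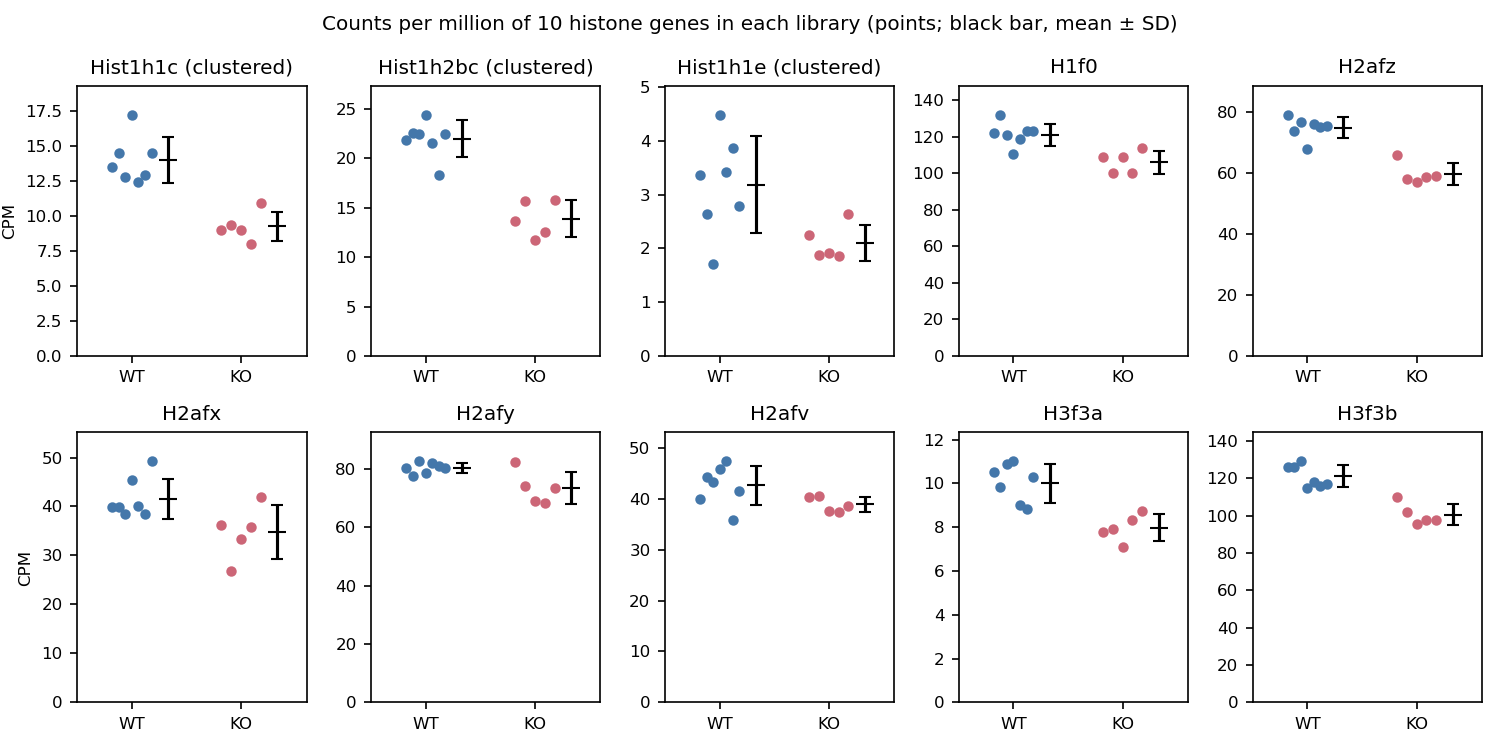
CPM (vertical axis) of each of the 10 histone genes in the 7 WT and 5 KO libraries, one point per library with the group mean and SD. The KO points of Hist1h1c, Hist1h2bc, H2afz, H3f3a and H3f3b all lie below the WT points, and those of the other genes overlap.

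Hist1h1c encodes the linker histone H1.2 and is a single-exon gene of 1560 bases at chr13:23738808-23740367 on the plus strand. Its level in WT ran from 12.4 to 17.2 CPM with a median of 13.5. The KO libraries had 9.0 CPM in KO 1, 9.33 in KO 2, 9.02 in KO 3, 8.0 in KO 4 and 10.9 in KO 6. No KO library reached the lowest WT library. The means were 14.0 ± 1.63 (n = 7) and 9.24 ± 1.04 CPM (n = 5), a log2 fold change of -0.60 ± 0.11 (SE). Density-corrected, it was -0.72 ± 0.10. These values rest on 58 to 92 counts per WT library and 44 to 66 per KO library, for which counting alone gives a coefficient of variation of 12.1%, close to the 11.7% measured among WT mice.

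Hist1h2bc encodes a core histone H2B and had the highest level of the 3 clustered genes. The gene lies at chr13:23684199-23692908 on the plus strand. WT levels ran from 18.3 to 24.4 CPM with a median of 22.5. In KO they were 13.7, 15.7, 11.7, 12.5 and 15.8 CPM in KO 1, 2, 3, 4 and 6. The groups did not overlap. The mean fell from 22.0 ± 1.86 to 13.9 ± 1.87 CPM, a log2 fold change of -0.67 ± 0.10 and, density-corrected, -0.73 ± 0.09. Uncorrected, this was the lowest fold change of the 10 genes, while density-corrected that of Hist1h1e was lower. How reads with several matches were counted is not known, so reads of Hist1h2bc may be shared with other clustered H2B genes.

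Hist1h1e encodes the linker histone H1.4 and had the lowest level of the set, at chr13:23620629-23622558 on the minus strand. WT libraries ran from 1.71 CPM in WT 3 to 4.48 with a median of 3.36. KO libraries had 2.25, 1.87, 1.92, 1.85 and 2.63 CPM. The groups overlapped through WT 3 alone, and the other 6 WT libraries lay above every KO library. The log2 fold change was -0.60 ± 0.22 on 8 to 24 counts per library, which did not pass the threshold over all genes, and -0.82 ± 0.22 density-corrected, which did. It also passed with DESeq2 size factors, upper-quartile factors or cyclic loess offsets, and without WT 3 or without KO 6. One annotated exon of the gene overlaps an exon of Hist1h2be on the same strand, so counts in the shared stretch may belong to either gene. The pseudogene Gm11398, which has no row of its own, overlaps Hist1h1e on that strand as well. Exons of H1f0, H2afx, H2afy and H3f3a overlap annotated genes on the opposite strand. Strandedness is not known, so reads from those genes may be counted in these rows.

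H1f0 encodes H1.0, the replacement linker histone of non-dividing cells, from a single exon at chr15:79028450-79030504. WT libraries ran from 110.5 to 132 CPM with a median of 122. KO libraries had 109, 100, 109, 100.2 and 114 CPM. KO 6 lay within the WT range and the other 4 below it. The mean was 121 ± 6.25 in WT and 106 ± 6.23 in KO, a log2 fold change of -0.19 ± 0.05. Density-corrected it was -0.04 ± 0.04, the trend at its density being -0.15.

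H2afz and H2afv encode the 2 forms of H2A.Z, a variant placed at promoters. H2afz (chr3:137864487-137866922) ran from 67.9 to 79.0 CPM in WT with a median of 75.3. In KO it had 65.9, 58.0, 56.9, 58.6 and 59.1 CPM. The groups did not overlap, and KO 1 stood apart from the other 4 KO libraries. The log2 fold change of H2afz was -0.33 ± 0.05, and -0.16 ± 0.03 density-corrected. H2afv (chr11:6427229-6444443) ran from 35.9 to 47.3 CPM in WT with a median of 43.2, and had 40.3, 40.6, 37.6, 37.4 and 38.5 CPM in KO. All 5 KO values of H2afv lay inside the WT range, and its log2 fold change of -0.13 ± 0.06 did not pass the threshold, except without WT 6. H2afz made up 63.7% ± 2.76 of the CPM of the pair in WT and 60.5% ± 1.18 in KO, and these shares overlapped.

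H2afx encodes H2A.X, the variant phosphorylated at DNA breaks, from a single exon at chr9:44334694-44336077. WT libraries ran from 38.5 to 49.2 CPM with a median of 39.9. KO libraries had 36.2, 26.8, 33.4, 35.8 and 42.0 CPM. KO 6 lay among the WT libraries, and KO 2 was the lowest. The log2 fold change was -0.26 ± 0.10, which did not pass the threshold, and leaving out single libraries moved it between -0.34 and -0.18. It passed with DESeq2, with limma-voom, with DESeq2 size factors, upper-quartile factors or cyclic loess offsets, with no filter on low counts, and without KO 6. H2afy encodes macroH2A1, a variant with a large extra domain, at chr13:56073619-56136361. It ran from 77.6 to 82.6 CPM in WT with a median of 80.4, and had 82.4, 74.2, 68.9, 68.5 and 73.6 CPM in KO. KO 1 lay within the WT range, while the other 4 KO libraries lay below all of them. Its log2 fold change was -0.13 ± 0.05, and -0.06 ± 0.04 density-corrected. The call of H2afy was lost when any one of 9 libraries was left out (WT 1, WT 3, WT 5, WT 6, WT 7, KO 2, KO 3, KO 4 or KO 6) and with WT 6 and WT 7 counted as 1 sample.

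H3f3a and H3f3b encode the same histone protein, H3.3, from separate genes. H3f3b (chr11:116021912-116027962) ran from 115 to 129 CPM in WT with a median of 118, and had 110, 102, 95.7, 97.5 and 97.5 CPM in KO. H3f3a (chr1:180800832-180813943) ran from 8.82 to 11.0 CPM in WT with a median of 10.3, and had 7.77, 7.93, 7.10, 8.31 and 8.73 CPM in KO. Neither gene had a KO library within its WT range. The log2 fold change was -0.27 ± 0.05 for H3f3b and -0.33 ± 0.11 for H3f3a. Density-corrected the pair moved apart, to -0.13 ± 0.04 and -0.51 ± 0.10. H3f3b supplied 92.3% ± 0.605 of the CPM of the pair in WT and 92.6% ± 0.666 in KO. The annotation holds pseudogenes named for H3f3a, and no source used here says how reads with several matches were counted, so the level of H3f3a is uncertain. Its call was lost without WT 3, without KO 3, without KO 2 and WT 4 together, with DESeq2, with the mouse number as a block and with library total as a covariate.

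Per kilobase of exon, the order of levels in WT was H2afz at 70.0 ± 3.23 CPM per kb, H3f3b at 60.8, H1f0 at 59.1, H2afy at 37.6, H2afx at 30.1, H2afv at 26.1, Hist1h2bc at 19.0, Hist1h1c at 8.96, H3f3a at 3.54 and Hist1h1e at 1.65. H2afz was above H3f3b in all 7 WT libraries. H3f3b and H1f0 did not separate: H3f3b was above H1f0 in 4 of the 7 WT libraries. The ranges of H2afx and H2afv overlapped as well, with H2afx above in 6 of 7. The KO order was the same except that H1f0 took the place before H3f3b. In both genotypes the 3 clustered genes stood below 6 of the 7 replacement genes per kilobase. H3f3a, below Hist1h1c and Hist1h2bc, was the exception. The lengths are those annotated, which in Hist1h1c, Hist1h1e and H2afx run past the stem-loop by 840, 1153 and 822 bases. Where these mRNAs ended in the libraries is not known, so their places in the order depend on the annotation. The density-corrected values use the same lengths. The labels do not say whether RNA was selected by its poly(A) tail, which typical clustered histone mRNAs lack, so levels of the 2 classes may not be measured alike.

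The contrast between the classes was taken within each library as the mean log2 CPM of the clustered genes minus that of the replacement genes. In WT it was -2.48 ± 0.192 (n = 7), from -2.80 in WT 3 to -2.15 in WT 4. In KO it was -2.90 in KO 1, -2.77 in KO 2, -2.91 in KO 3, -2.99 in KO 4 and -2.66 in KO 6, with a mean of -2.85 ± 0.132 (n = 5). WT 3 lay within the KO range and the other 6 WT libraries above it. In WT 3 Hist1h1e had 8 counts (1.71 CPM), while Hist1h1c (12.8 CPM) and Hist1h2bc (22.5 CPM) lay above every KO library. The difference of the means was -0.37, and -0.56 density-corrected. Leaving out any one library kept it between -0.42 and -0.31. On the log2 scale the trend at each gene's density was -0.17 for H2afz, -0.15 for H3f3b and for H1f0, -0.07 for H2afy, -0.02 for H2afx and -0.01 for H2afv, but 0.17 for H3f3a. It was 0.06 for Hist1h2bc, 0.12 for Hist1h1c and 0.22 for Hist1h1e. The trend is fitted on count per exonic base, so it follows coverage by design. H3f3a lay with the clustered genes. The clustered genes supplied 7.37% ± 0.69 of the summed CPM of the 10 genes in WT (6.83% to 8.85%) and 5.64% ± 0.563 in KO (5.20% to 6.33%), with no overlap.

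**Figure D3:**
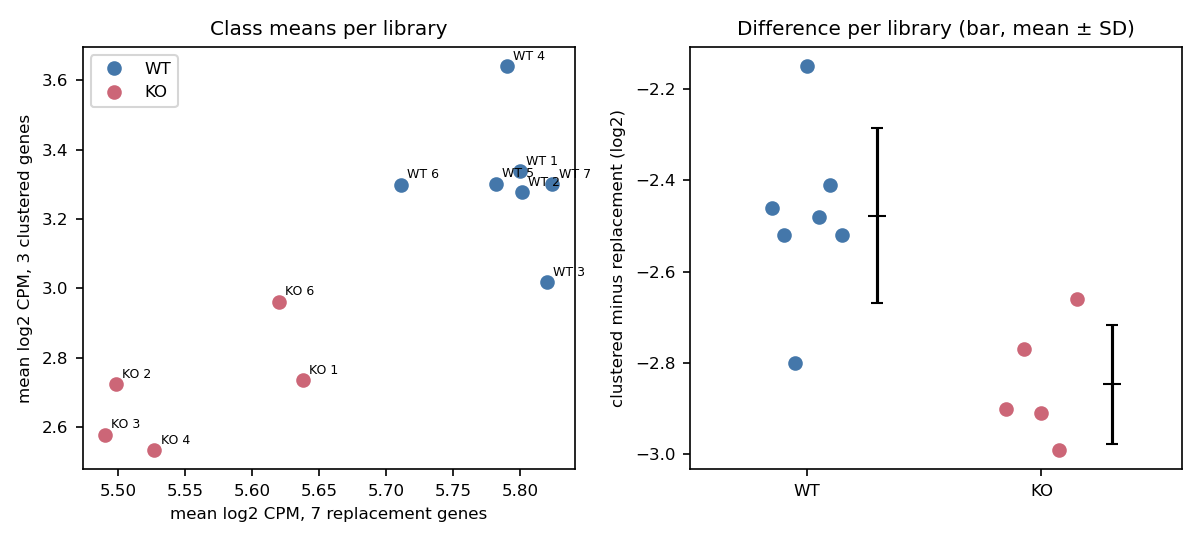
Mean log2 CPM of the 3 clustered genes minus that of the 7 replacement genes (vertical axis) in each WT and KO library. KO libraries lie between -2.99 and -2.66 and WT libraries between -2.80 and -2.15, with WT 3 inside the KO range.

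Linker histones come from both classes, so their make-up was compared as well. Of the summed CPM of 5 linker histone genes (H1f0, H1fx, Hist1h1c, Hist1h1d and Hist1h1e), H1f0 took 68.9% ± 2.31 in WT and 72.6% ± 2.81 in KO. The 3 Hist1 linker genes took 11.2% ± 1.81 in WT and 9.07% ± 0.581 in KO, and H1fx 19.9% ± 1.44 and 18.4% ± 2.77. The ranges of all 3 shares overlapped between the genotypes.

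Some libraries had the highest level of their group in many of the Hist1 rows, several of which have few counts. WT 4, the deepest WT library, had the highest WT level in 9 of the 10 Hist1 rows of the table, and KO 6 the highest KO level in 7 of 10. Without WT 4 the log2 fold changes were -0.56 for Hist1h1c, -0.65 for Hist1h2bc and -0.51 for Hist1h1e. KO 1 had the smallest total of the KO libraries, 4990643, which lay within the WT range, while the other 4 KO totals lay above every WT total. H2afz, H2afy and H3f3b had their highest KO level in KO 1. Hist1h1c and Hist1h2bc in KO 1 lay inside the range of the other 4 KO libraries and below every WT library. Library total and genotype cannot be fully told apart here. Once each gene was centred on its group mean, Hist1h1c and Hist1h2bc correlated at r = 0.665 over the 12 libraries, and the 3 clustered pairs ranged from 0.0649 to 0.665. Pairs of replacement genes had a median r of 0.199 and ran from -0.271 to 0.734, the highest being H2afz with H2afy. Pairs across the classes had a median of 0.0644. These correlations share library depth and composition and are a description.

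Over 11710 genes with a mean of at least 10 CPM, those whose centred levels were most like Hist1h2bc over the 12 libraries were Csdc2 (r = 0.898), Kptn (0.870), Rps4l (0.852), Ucp2 (0.818) and Zfp937 (0.818). Those most like H1f0 were Vcpkmt (0.925), Med7 (0.921), Rfc2 (0.921), Senp2 (0.907) and Dclre1a (0.906). No histone gene was on either list. These are the highest of 11710 correlations over only 12 libraries, where high values can arise without a tie between genes. They are a description.

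The table has 20 other histone rows, which the set did not include. Of the 16 with enough counts to test, 14 had a log2 fold change below 0, where 43.8% of all tested genes did. Of these 16 rows 4 were called lower and 0 higher, with 5 lower and 0 higher at an unadjusted p under 0.05, where 19.2% of all genes were lower and 22.2% higher. DESeq2 and limma-voom also called 4 lower and 0 higher. Their median log2 fold change was -0.20, against 0.0338 over all tested genes, of which 14.4% were called lower and 15.3% higher. Density-corrected, 7 were called lower, where 8.06% of all genes were, and the median was -0.31. The 7 include H2afy3, which has no known exonic length and was given the median length of the tested rows.

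Hist1h2bg, a clustered H2B gene, had 3.21 to 4.85 CPM in WT and 2.25, 3.27, 1.77, 1.85 and 2.14 CPM in KO. Only KO 2 reached the WT range, and edgeR gave a log2 fold change of -0.78 ± 0.19 (adjusted p = 0.00699). Reads with several matches may be shared among clustered H2B rows such as this one and Hist1h2bc, so these rows may not be independent. Hist1h2be, the H2B gene that shares exon sequence with Hist1h1e, fell from 7.99 ± 1.66 to 5.61 ± 1.33 CPM (edgeR log2 fold change -0.51 ± 0.18, adjusted p = 0.0415), a call lost without any one of 8 libraries (WT 2, WT 3, WT 4, WT 6, KO 1, KO 3, KO 4 or KO 6). H2afj, a single H2A gene outside the clusters, had 39.5 to 44.1 CPM in WT and 38.7, 28.6, 32.2, 32.3 and 39.5 CPM in KO (edgeR log2 fold change -0.29 ± 0.07, adjusted p = 0.00924). H1fx, the linker histone H1.10, fell from 35.1 ± 3.10 to 27.3 ± 6.30 CPM (edgeR log2 fold change -0.37 ± 0.12, adjusted p = 0.0279). Its KO libraries spread from 19.3 in KO 2 to 34.6 in KO 1, and the call was lost without WT 5, WT 7, KO 2, KO 3 or KO 4. Outside the set, the most abundant histone rows that were not called were H2afy2, which encodes macroH2A2, at -0.11 (edgeR adjusted p = 0.302) and Hist3h2ba at -0.14 (adjusted p = 0.248).

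By gene cluster, 2 of the 5 tested Hist1 rows outside the set were called lower, all 5 were below 0, and their median log2 fold change was -0.49 (-0.69 density-corrected, 3 called lower). Rows are placed by symbol here: Hist1h2al, annotated as a processed pseudogene and at -0.02, lies at chr13:51202727-51203065, away from the other Hist1 rows. The 3 tested Hist2 rows had a median of -0.12 and the 3 Hist3 rows -0.17, with 0 called in either. Of the 5 single genes 2 were called lower, with a median of -0.20. Density-corrected, these medians were -0.24, -0.25 and -0.31, with 0, 1 and 3 rows called lower. Over all tested genes, 14.4% were called lower and 43.8% were below 0, and 8.06% were called lower density-corrected. The summed level of the 7 Hist1 rows ran from 25.8 to 40.3 CPM in WT and from 20.3 to 29.0 in KO, and that of the 5 Hist2 rows was 24.1 ± 3.37 and 24.1 ± 1.91. The Hist3 rows summed to 41.3 ± 3.43 and 36.9 ± 1.59 CPM, and the single genes to 121 ± 4.38 and 102 ± 10.9 CPM. Whether the clusters differed from one another was not tested. Hist2h2bb, too low for the main test, went the other way, from 0.773 ± 0.429 to 1.63 ± 0.422 CPM, and without a filter on low counts edgeR gave it a log2 fold change of 1.06 ± 0.36 (adjusted p = 0.0379). It was singled out after its values were seen.

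**Figure D4:**
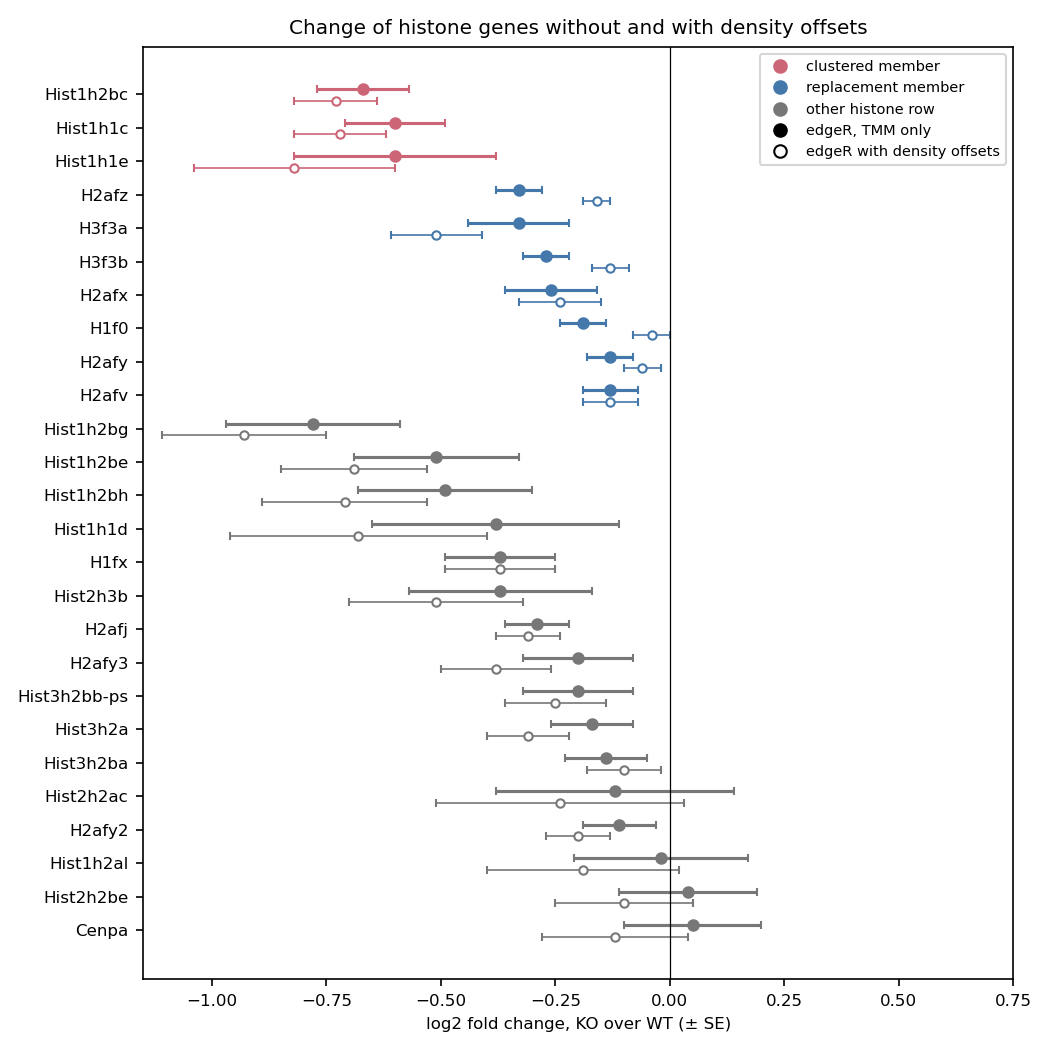
Log2 fold change, KO over WT, with its SE (horizontal axis) of each tested histone row, the 10 genes of the set and the 16 others, grouped by class. Of the 26 rows, 24 lie below 0, and the 6 lowest are all Hist1 genes.

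Sorted by the stem-loop, the 10 histone rows that hold the letters shown above had a median log2 fold change of -0.44, from -0.78 to -0.12, and 3 were called lower. The 16 tested histone rows without them had a median of -0.20, and 8 were called lower. Density-corrected, the medians were -0.69 and -0.19, with 6 and 7 called lower. Some rows without the letters have short annotated transcripts, such as Hist2h3b at 488 bases, and a site past the annotated end would be missed. Within the set, Hist1h2bc, at -0.67, belongs to the rows without the letters, and H2afx, at -0.26, to those with them. Hist1h2bg, the lowest of all tested histone rows at -0.78, holds them. The 18 other genes whose transcripts hold the same letters had a median of 0.06, with 3 called higher and 2 lower. These 2 counts are near the shares over all tested genes, 15.3% higher and 14.4% lower. Density-corrected, 8.06% of all tested genes were called lower. Members of the set are in both groups, so these medians are a description.

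Of 24 genes that process or degrade histone mRNA, 23 were tested, of which 3 rose and 2 fell, with a median log2 fold change of -0.018. For this list and the next 2, the values over all tested genes are 15.3% higher, 14.4% lower and a median of 0.0338. Zcchc6 (TUT7), a uridylyltransferase known to add uridines to histone mRNA ends, rose from 90.4 ± 4.77 to 117 ± 7.73 CPM with no overlap (edgeR log2 fold change 0.37 ± 0.05, adjusted p = 2.48e-04). Lsm11, a protein of the U7 particle that cuts histone pre-mRNA, rose from 64.7 ± 6.45 to 83.9 ± 15.8 CPM (0.38 ± 0.11, edgeR adjusted p = 0.0154, 0.107 density-corrected). Casp8ap2 (FLASH), its partner in that cut, rose from 30.8 ± 5.46 to 37.9 ± 2.33 CPM (0.30 ± 0.10, edgeR adjusted p = 0.0376, 0.266 density-corrected). The call of Casp8ap2 was lost without WT 1, WT 2, WT 3, WT 5, KO 2, KO 3 or KO 4. Snrpd3 and Snrpg, Sm proteins shared by the U7 particle and the spliceosome, fell by 0.32 ± 0.07 (edgeR adjusted p = 0.00456) and 0.30 ± 0.09 (adjusted p = 0.0224) on the log2 scale, and the call of Snrpg was lost without KO 4 or KO 6. The most abundant genes not called were Sympk at 0.05 (adjusted p = 0.243, but 0.14 and 0.0027 density-corrected) and Cstf2 at -0.05 (adjusted p = 0.470). The call of Zcchc6 also held with library total as a covariate, at 0.44 (edgeR adjusted p = 0.0372).

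Of 40 histone chaperones and remodellers that carry or deposit histones, 39 were tested, of which 8 rose and 13 fell, with a median of 0.00638. Those that rose included Hira and Cabin1, subunits of the complex that deposits H3.3. Cabin1 rose from 139 ± 7.03 to 165 ± 5.72 CPM with no overlap (edgeR log2 fold change 0.25 ± 0.04, adjusted p = 8.71e-04), and Hira from 109 ± 7.58 to 134 ± 7.99 CPM (0.30 ± 0.05, edgeR adjusted p = 0.0012). Srcap and Ino80, remodellers that act on H2A.Z, rose by 0.37 ± 0.08 (edgeR adjusted p = 0.00248) and 0.32 ± 0.06 (adjusted p = 0.00188). Those that fell included Npm1, from 79.4 ± 2.09 to 65.5 ± 2.84 CPM (edgeR log2 fold change -0.28 ± 0.04, adjusted p = 3.65e-04), and Set, from 129 ± 5.26 to 104 ± 6.85 CPM (-0.32 ± 0.05, adjusted p = 4.07e-04), both acidic chaperones. The nucleosome assembly proteins Nap1l1 and Nap1l5 fell by 0.23 and 0.27 (edgeR adjusted p = 7.38e-04 and 0.00118), but stood at 0.05 and -0.02 density-corrected, where 4 of the 39 genes were lower and 6 higher. The most abundant genes not called were Atrx at 0.02 (adjusted p = 0.843) and Supt6 at 0.07 (adjusted p = 0.251, but 0.15 and 0.0464 density-corrected).

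Of 34 genes of DNA replication and division, which mark the cells in which clustered histone genes are mostly transcribed, 29 were tested, of which 4 rose and 1 fell, with a median of 0.14. Mki67 and Top2a, markers of dividing cells, rose from 7.67 ± 0.99 to 11.0 ± 1.77 CPM (edgeR log2 fold change 0.53 ± 0.13, adjusted p = 0.00744) and from 6.55 ± 0.957 to 9.0 ± 0.656 CPM (0.46 ± 0.12, adjusted p = 0.0125). The helicase subunits Mcm7 and Mcm2 rose by 0.33 ± 0.07 (edgeR adjusted p = 0.0034) and 0.39 ± 0.11 (adjusted p = 0.0194), the latter call lost without KO 2. Pcna, the polymerase clamp, fell from 52.1 ± 1.81 to 45.2 ± 2.52 CPM (edgeR log2 fold change -0.20 ± 0.05, adjusted p = 0.00577). Density-corrected, Mcm7 alone stayed called higher and Pcna lower, and the median was -0.019. The most abundant genes not called were E2f1 at 0.05 (adjusted p = 0.735) and Rrm1 at 0.08 (adjusted p = 0.311), both at -0.03 density-corrected.

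**Figure D5:**
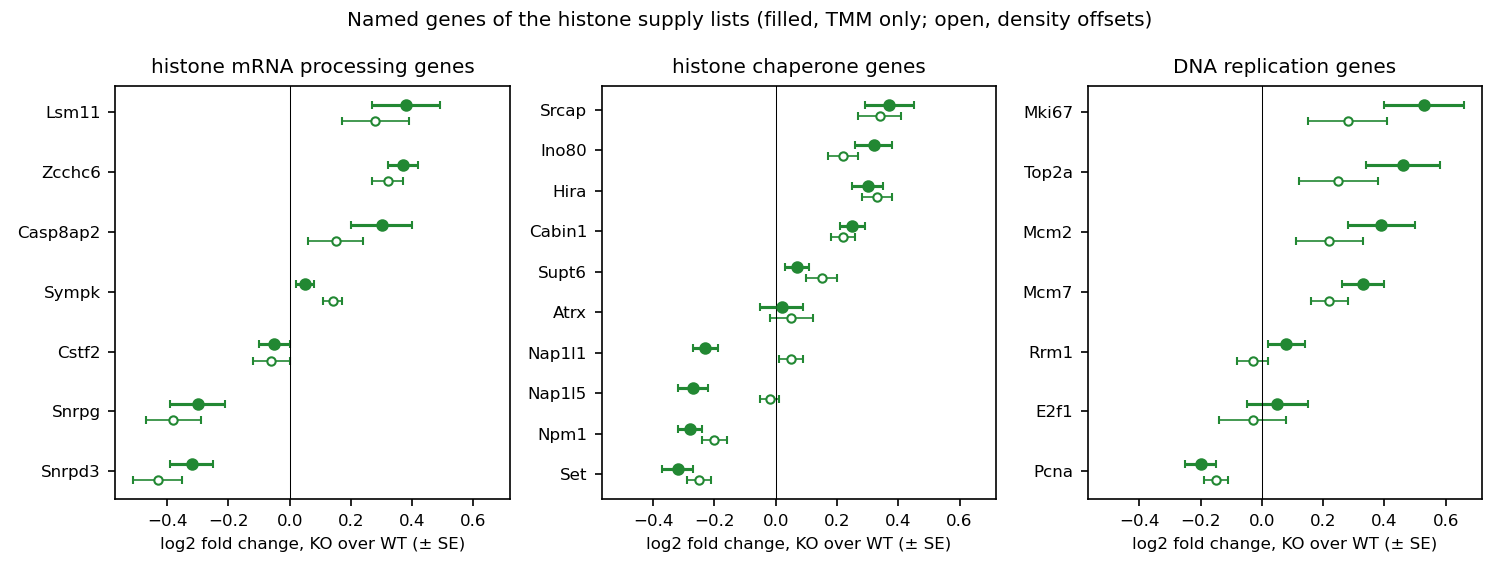
Log2 fold change, KO over WT, with its SE (horizontal axis), of the genes named in the text from the histone mRNA processing, chaperone and DNA replication lists. Filled points are the fit with TMM only and open points the density-corrected fit. Over all their tested genes, which are not all drawn, the medians of the 3 lists are -0.018, 0.00638 and 0.14. Each list has genes called on both sides of 0.

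Some markers of cell types were called as well. All 4 markers of oligodendrocyte precursors were called higher, and their summed level was 227 to 303 CPM in WT and 323 to 392 in KO, with no overlap. Of 5 microglial markers 3 were called lower (372 to 465 against 342 to 372 CPM). Of the 5 markers of excitatory neurons, of inhibitory neurons and of oligodendrocytes, 2 each were called lower. The same held for 1 of 5 for astrocytes, and 2 of 5 endothelial markers were called higher. Over all tested genes, 15.3% were called higher and 14.4% lower. Summed levels of the choroid plexus markers ran from 10.1 to 108 CPM in WT and from 14.1 to 92.7 in KO, those of striatum from 323 to 958 and from 405 to 813, and 0 of either were called. No marker found in the table was at 0 in all libraries, and 1 of 5 blood markers was found there. The part of these markers in the histone levels was not tested.

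Among the annotated transcripts of the 10 genes, 1 of the 7 of H2afz is classed as a target of nonsense-mediated decay, and none of the others. In counts per gene these transcripts cannot be told apart. With library total as a covariate, the log2 fold changes were -0.75 for Hist1h1c, -0.70 for Hist1h2bc and -0.67 for Hist1h1e, none of them called, and those of the replacement genes ran from -0.38 for H3f3a to 0.04 for H2afy, the one gene of the set that turned above 0.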

How the data were processed

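Gene counts, deposited by the authors as one table of 12 libraries, were used as they stand. Alignment was to mm10 with STAR, per the submitters' processing notes. No source used here gives versions, the counting tool, strandedness or the treatment of duplicates. Counts were normalised with TMM, filtered with filterByExpr and tested with edgeR 4.0.16 (quasi-likelihood, genotype only, Benjamini-Hochberg over 14274 genes, R 4.3.3), and each SE was taken from the fold change and its F value. Limma 3.58.1 and DESeq2 1.42.0 were alternatives. Density-corrected values use offsets per gene and library from a lowess curve (span 0.3) of log2 deviation on count per exonic base. Exonic lengths came from GENCODE, matched for 14725 of 14909 rows. For the offsets, rows without a length were given the median length of the tested rows. Log2 levels add 0.5 counts. The edgeR, density-corrected, DESeq2 and limma-voom fits were also run on simulated counts, with the same dispersion for every gene and no trend with count density. How they perform under such a trend was not tested. Totals per library limit genes with few counts, such as Hist1h1e.

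The members, the lists and the alternatives were chosen with earlier results of these data known. Named from each list were the called genes, at most 4 per direction by smallest p, and the 2 most abundant genes not called. For the most abundant clustered and replacement gene by CPM, the 5 genes of highest correlation were named. Counting WT 6 and WT 7 as 1 sample was added after seeing the data.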

Additional observations from a re-analysis of the deposited data

Results flagged for a closer look

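The H2afz level in KO 1, 65.9 CPM, stood apart from the other 4 KO libraries, which ran from 56.9 to 59.1 CPM, a gap that took up 0.756 of the range of the group. It was the only 1 of 36 groups of values examined in this way, and chance flags about 1 in 20. KO 1 also had the smallest total count of the KO libraries, 4990643, and the part of that in the H2afz level was not tested.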

How the results depend on the processing

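The clustered minus replacement difference kept its direction under every alternative run, from -0.56 (density offsets) to -0.27 (medians over members). With library total as a covariate, calls over all genes were 84 higher and 11 lower, members lower 0, other histone genes lower 0, processing genes 1 higher and 0 lower, chaperones 0 and 0 and replication genes 0 and 0. At an unadjusted p under 0.05 that edgeR fit had 7.4% of all genes higher and 5.67% lower, 3 members lower, 4 other histone genes lower, 3 processing genes higher and 0 lower, 5 chaperones higher and 10 lower, and 1 replication gene in each direction. Totals and genotype go together in part, and H2afy (0.037), Cstf2 (0.0075), Supt6 (-0.010) and Rrm1 (-0.096) changed sign there. With density offsets the calls were 1216 and 1150 over all genes, 7 other histone genes lower, 4 chaperones lower and 1 replication gene higher, and Nap1l1 (0.053), E2f1 (-0.034), Rrm1 (-0.028) and Csdc2 (0.084) changed sign. Mouse numbers did not pair the libraries (correlations of same-numbered deviations from -0.396 to 0.160). The replicate block over 10 libraries gave 1133 and 1180 calls over all genes, 5 members lower (H2afy and H3f3a lost), 1 other histone gene lower, 1 processing gene higher and 1 lower, 8 chaperones lower, 1 replication gene higher, and a difference between the classes of -0.38. Without a filter, or with one at 1 CPM, 1 other histone gene was higher. DESeq2 size factors gave 5 processing genes lower, and cyclic loess offsets 9 other histone genes lower, 4 processing genes lower and 2 replication genes higher. Counting WT 6 and WT 7 as 1 sample left 6 members called lower.

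Leaving out 1 library gave 1585 to 2420 genes higher and 1544 to 2467 lower, 5 to 8 members lower, 2 to 4 other histone genes lower (2 without KO 3 or KO 4), 2 to 4 processing genes higher and 1 to 4 lower (4 without WT 4, 1 without KO 6), 7 to 9 chaperones higher and 10 to 15 lower, and 3 to 5 replication genes higher. Atrx ran from -0.029 (without WT 2) to 0.057, E2f1 from -0.0060 (without WT 4) to 0.13 and Rps4l from -0.14 to 0.018 (without KO 4). The cause of these changes was not tested. Counts of 8 to 24 per library limit Hist1h1e most.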
